A study of Mus musculus with 38 samples.

Results

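Torpor deprivation was examined in mouse soleus, a slow postural muscle of the lower leg, by setting 4 fasted mice that were kept out of torpor (Dep) against 8 fasted mice that were free to enter it (Mid), 12 of the 38 libraries of the series. All were young adult male C57BL/6J mice, with no transgene or mutation named in the labels, that had their food removed and were kept in cool surroundings until the muscle was taken late in the dark phase. In the hours before sampling, any fall of oxygen consumption in a Dep mouse was met with light tactile stimulation by hand, while Mid mice were left alone and were torpid or between torpid bouts at sampling. The groups shared strain, sex, fast and time of day, and differed in handling, arousal and torpor together, which cannot be told apart in this design. Each library came from 1 animal, from 1 or both soleus muscles, and the members were found by the sample titles alone.

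Transcription start sites were counted by nAnT-iCAGE, a non-amplified form of cap analysis of gene expression that reads the capped 5′ ends of RNA. Tags were gathered by the authors into clusters that mark promoters, so 1 gene can have several. The libraries fall into a first and a second set by the form of their library names. The clusters that held a tag in the first set, 10776 in number, were tested. A GENCODE transcript start no farther than 500 bp away, with matching strand, gave 9591 of these a gene, 9053 genes in all. Dep libraries held 23175690 to 28688487 tags in clusters and Mid libraries 23726836 to 31834199. Values per library are TPM as deposited, that is tags per 1000000 tags of the library. Fold changes and their standard errors (SE) come from a fit of the 28 libraries of the first set with trimmed-mean (TMM) scaling. So does the false discovery rate (FDR), the Benjamini-Hochberg adjusted p of edgeR's quasi-likelihood F test. A promoter was called at an FDR below 0.05.

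Torpor is a regulated fall of metabolic rate and body temperature that a small mammal can enter when food is short and the surroundings are cool. A gentle touch arouses the animal, and arousal engages the sympathetic nerves, shivering and the postural muscles. Immediate early genes such as those of the ATF and AP-1 families answer within minutes to nerve activity, stretch and stress hormones, while clock genes and glucocorticoid targets follow the time of day and the fasting state.

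Before the promoters are described, 1 Dep library has to be set apart. Dep_1 held transcripts of neutrophil genes that were near 0 in the other 11 libraries of the comparison. Camp, which encodes the antimicrobial peptide cathelicidin of neutrophil granules, stood at 53.2 TPM (1603 tags) in Dep_1, had no tag in Dep_2 to Dep_4 and had at most 4 tags in any Mid library. Ngp, another neutrophil granule protein, had 678 tags in Dep_1, none in the other Dep libraries and at most 2 in Mid. S100a8 and S100a9, the subunits of calprotectin, reached 23.4 and 17.6 TPM in Dep_1 and did not exceed 0.6 TPM in the other 11 libraries. The 5 neutrophil markers that have a promoter here (Lcn2, S100a8, S100a9, Ngp and Camp, of 10 listed) summed to 135.1 TPM in Dep_1, to between 2.93 and 3.98 TPM in Dep_2 to Dep_4, and to between 1.92 and 5.36 TPM in Mid. All 5 were highest in Dep_1. Slc4a1, the anion exchanger of red cells, was at 14.8 TPM in Dep_1 and between 0.412 and 1.06 TPM elsewhere, whereas the summed red cell markers of Dep_1 (4122.4 TPM) lay within the Mid range of 2384.1 to 4485.5 TPM. Promoters of replication-dependent histones were also high in Dep_1, as with Hist1h3b at 27.3 TPM against 1.06 to 2.3 TPM in the other Dep and Mid libraries, and both cell division markers with a promoter (Birc5 and Ccna2) were highest there.

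**Figure D1:**
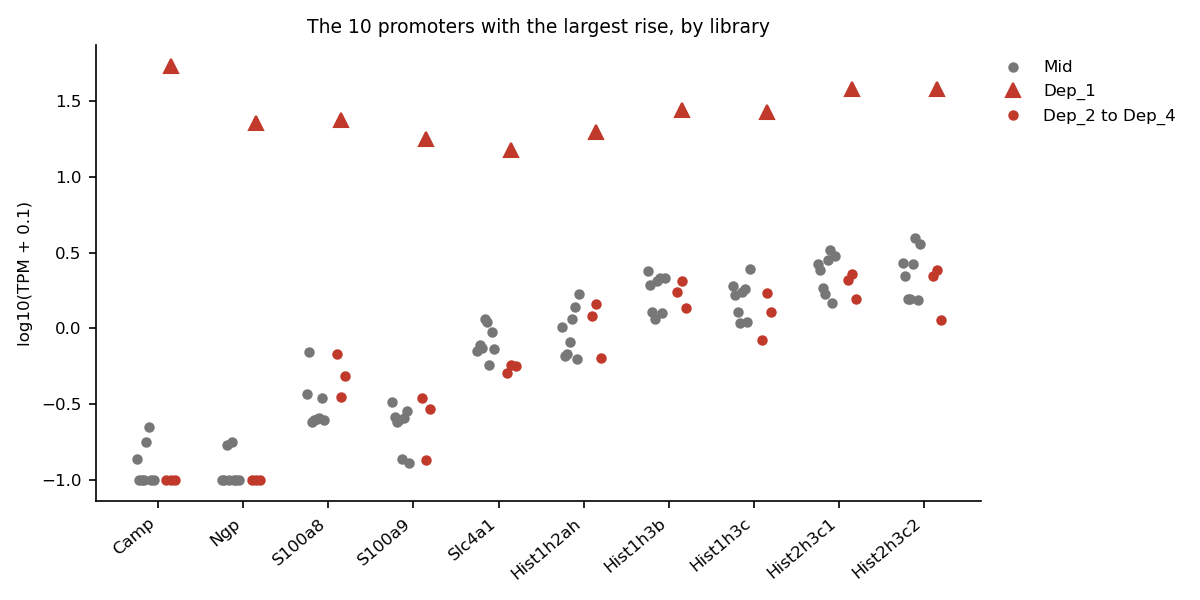
TPM of the 10 genes with the largest log2 fold change among called promoters, on the scale log10(TPM + 0.1), in 8 Mid libraries (grey), Dep_1 (triangle) and Dep_2 to Dep_4 (red circles). For each gene Dep_1 stands above all other libraries, and Dep_2 to Dep_4 fall near the Mid libraries.

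These 10 genes, namely Camp, Ngp, S100a8, S100a9, Slc4a1, Hist1h2ah, Hist1h3b, Hist1h3c, Hist2h3c1 and Hist2h3c2, were the largest rises called by the fit of 28 libraries in annotated genes with a mean of 1 TPM or more in either group. None was called once Dep_1 was left out. Hist1h3b had a mean of 61.0 TPM in the HiT group (high ambient temperature). The summed histone promoters reached 3505.0 TPM in Dep_1, 2033.2 to 2478.3 TPM in the other Dep libraries and 1981.5 to 3155.7 TPM in Mid. Of 57 histone cluster genes, 10 promoters were called higher with Dep_1 and 0 without it, beside 1.16% and 0.696% of all promoters. The median log2 fold change of the histone promoters went from 1.00 to -0.18. Camp and Ngp had at most 4 tags in every library of the comparison other than Dep_1, so that no fold change is given for them without it. The calls are therefore given with Dep_1 and without it. Of the promoters named below as not called, Srsf1 alone was called without it.

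With all 4 Dep libraries, 125 promoters were higher in Dep than in Mid (1.16% of 10776) and 94 were lower (0.872%). Without Dep_1, 75 were higher (0.696%) and 50 were lower (0.464%). Of the 125, 60 were called higher in both fits, and of the 94, 43 were called lower in both. The median size of the called changes on the log2 scale was 0.454 (higher) and 0.504 (lower) with Dep_1, and 0.494 and 0.579 without it. With Dep_1, 20 promoters rose by over 2-fold, of which 5 were called without it and 14 had a log2 fold change below 0.4 without it. At an unadjusted p below 0.05, the fit of 28 libraries had 2064 promoters (19.2%) and the fit without Dep_1 had 1912 (17.7%). A fit to the 12 Dep and Mid libraries alone, which does not share the spread of the other groups, called 2 promoters higher, those of Fzd7 and Rpl5, and 0 lower (1568 at an unadjusted p below 0.05, and 0 and 0 without Dep_1). Library sizes without TMM gave 7 higher and 2 lower. Single libraries moved the counts as well, to 35 and 11 without Dep_2, 43 and 20 without Dep_4, and 191 and 166 without Mid_6.

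**Figure D2:**
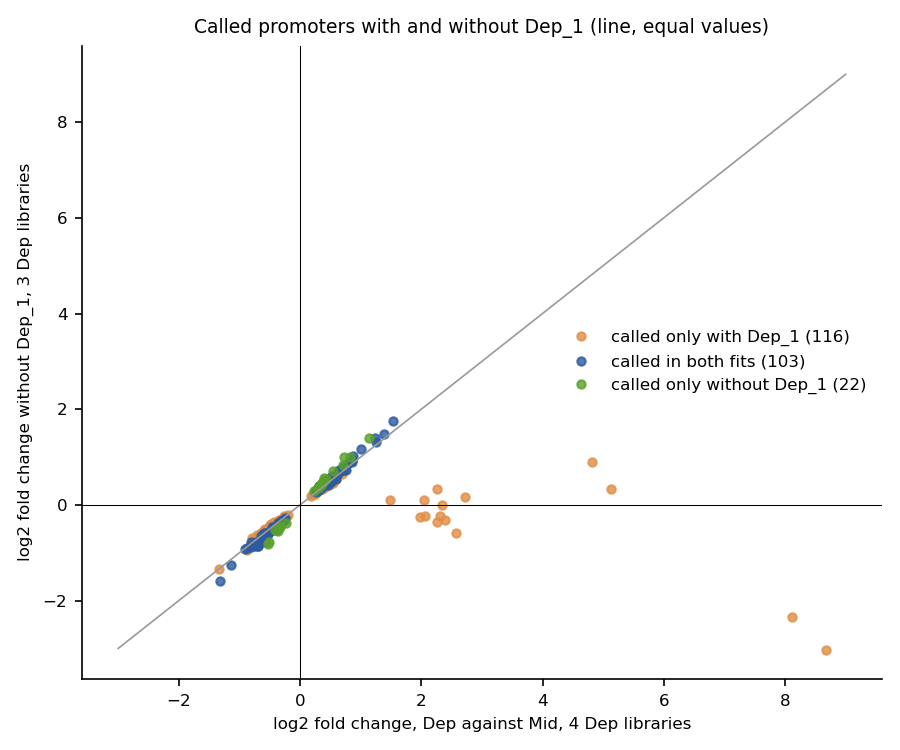
Log2 fold change of Dep against Mid with 4 Dep libraries (x axis) and without Dep_1 (y axis) for each promoter called in either fit; the grey line marks equal values. The 65 higher and 51 lower promoters called only with Dep_1 include those far to the right whose fold change falls to near or below 0 without it, while the 60 higher and 43 lower called in both fits keep their sign.

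Over the whole profile, a distance between Dep and Mid beyond that within the groups was not detectable. The mean leading log2 fold change distance, taken over the 500 most different promoters of each pair, was 1.83 between the groups and 1.80 within them. The difference of 0.0236 had p = 0.337 in an exact one-sided permutation test over all divisions of the 12 libraries into 4 and 8. Without Dep_1 the difference was 0.00617 (exact one-sided p = 0.388).

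Atf3, a stress-induced transcription factor of the ATF/CREB family, has 2 start site clusters in the table, and both had more tags in Dep. The downstream cluster (chr1:191183140-191183262, minus strand, mm10) held 18.6, 27.3, 38.1 and 28.1 TPM in Dep_1 to Dep_4. In Mid the lowest was 7.41, the median 17.2 and the highest 28.8 TPM. Dep_3 lay above every Mid library, and the others lay within the Mid range, where Mid_7 alone exceeded 17.5 TPM. It was called higher with a log2 fold change of 0.88 (SE 0.23, FDR 0.0427), and of 1.02 without Dep_1 (SE 0.24, FDR 0.0371). The call held in 3 of the 12 fits that left out 1 library. The upstream cluster (chr1:191217868-191218088) held 1.73, 16.9, 5.74 and 3.51 TPM in Dep_1 to Dep_4, against a lowest of 0.314, a median of 0.722 and a highest of 8.08 TPM in Mid. Its log2 fold change of 1.84 (SE 0.62) missed the threshold at an FDR of 0.112, and also without Dep_1 (2.17, SE 0.64, FDR 0.0842). It gave 38.2% of the tags of both clusters in Dep_2 and 8.50% to 13.1% in the other Dep libraries, and 39.1% in Mid_2, 18.7% in Mid_8 and 2.81% to 7.08% in the other Mid libraries. In HiT mice the same cluster had a mean of 21.4 TPM and the downstream cluster 9.03 TPM.

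The promoter sequences of 2 immediate early genes and 1 chaperone gene called in both fits are shown for the sites in them, from 250 bases before to 50 after the RefSeq start (GRCm38.p6, minus strand for Atf3 and Dusp1). Capitals mark matches to the ATF site TNACGTCA, the C/EBP-ATF site TGATGNAA, the E-box CACGTG and the heat shock element core GAANNTTC, read on both strands.
Atf3, chr1:191183284-191183583: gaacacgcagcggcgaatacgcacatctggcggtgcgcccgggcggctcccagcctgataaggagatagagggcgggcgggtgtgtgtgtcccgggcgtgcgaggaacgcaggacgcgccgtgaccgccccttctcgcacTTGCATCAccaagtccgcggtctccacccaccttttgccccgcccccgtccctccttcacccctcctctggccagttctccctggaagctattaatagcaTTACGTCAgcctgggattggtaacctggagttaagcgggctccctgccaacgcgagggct
Dusp1, chr17:26508423-26508722: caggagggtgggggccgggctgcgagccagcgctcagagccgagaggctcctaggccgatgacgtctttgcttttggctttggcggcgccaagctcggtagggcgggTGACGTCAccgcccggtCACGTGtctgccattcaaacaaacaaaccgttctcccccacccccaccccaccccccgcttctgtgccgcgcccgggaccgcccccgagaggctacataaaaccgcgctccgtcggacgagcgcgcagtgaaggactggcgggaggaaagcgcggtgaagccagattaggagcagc
Dnaja1, chr4:40722218-40722517, plus strand: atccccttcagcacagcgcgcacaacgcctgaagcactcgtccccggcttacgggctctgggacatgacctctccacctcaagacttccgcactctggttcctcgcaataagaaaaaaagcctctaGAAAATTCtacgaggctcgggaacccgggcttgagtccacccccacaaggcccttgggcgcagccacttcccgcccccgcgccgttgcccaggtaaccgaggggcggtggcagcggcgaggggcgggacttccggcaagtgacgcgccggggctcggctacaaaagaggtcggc
The Atf3 window has TTACGTCA from 10 bases before the RefSeq start and, on the other strand, a C/EBP-ATF match. The called Atf3 cluster lies wholly downstream of this window, which therefore does not hold the start sites counted. Both matches are farther from those start sites than from the RefSeq start. Dusp1 has the full cyclic AMP response element TGACGTCA from 143 bases before the start, with an E-box next to it. Of the 10776 promoters tested, 6794 had such a window. TNACGTCA was in 370 of these (5.45%), in 10 of the 84 windows of promoters called higher (11.9%), and in 2 of the 68 called lower (2.94%). Without Dep_1 it was in 5 of 48 higher (10.4%) and 1 of 36 lower (2.78%). GAANNTTC was in 361 windows (5.31%), in 11 of the 84 higher (13.1%) and in 5 of 48 without Dep_1 (10.4%), and in 2 of the 68 lower (2.94%) and 0 of 36 without Dep_1. These shares are descriptions and were not tested. The AP-1 site TGANTCA was in 4 of the 84 higher (4.76%), beside 4.56% among all windows, and in 2 of 48 without Dep_1 (4.17%).

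Of 24 promoters of immediate early and AP-1 genes, both Atf3 clusters included, 4 were called higher with Dep_1 (Atf3, Dusp1, Jun and Ier5) and 3 without it, and 0 were called lower. Over all promoters, 1.16% were called higher and 0.872% lower with Dep_1, and 0.696% and 0.464% without it. The counts called in this and the other lists were not tested against these shares. Dusp1 encodes a phosphatase that switches off MAP kinases. It held 81.4, 82.5, 143.6 and 94.7 TPM in Dep_1 to Dep_4, against a lowest of 48.7, a median of 59.5 and a highest of 95.0 TPM in Mid. Only Dep_3 lay outside the Mid range. The log2 fold change was 0.71 (SE 0.15, FDR 0.0163), and 0.80 without Dep_1 (FDR 0.0220). Jun, a subunit of AP-1, held 147.3, 156.6, 163.2 and 124.4 TPM in Dep, against 96.0, 120.7 and 143.0 TPM (lowest, median and highest) in Mid, so that 3 Dep libraries lay above every Mid library. Its log2 fold change was 0.41 in both fits (FDR 0.0163 and 0.0398). Ier5, an immediate early gene tied to the heat shock response, was higher by 0.45 on the log2 scale (FDR 0.0448), with an FDR of 0.0809 without Dep_1. It was called in 2 of the 12 fits that left out 1 library. Mean Ier5 was 18.4 TPM in Pre (before the fast), 21.7 in Post (refed), 21.1 in HiT and 23.7 in Fed (by title). These lay above 17.7 in Dep and 13.7 in Mid. Mean Jun was 140.0, 123.2, 172.4 and 160.0 TPM in the same groups, 147.9 in Dep and 118.8 in Mid. Fos, the partner of Jun, had 3.30 TPM in Dep and 2.94 in Mid on average (FDR 0.704), and Egr1, a zinc finger factor, 25.8 and 27.2 TPM (FDR 0.982). The median log2 fold change of the list was 0.19 (0.20 without Dep_1), beside 0.00 over all promoters.

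**Figure D3:**
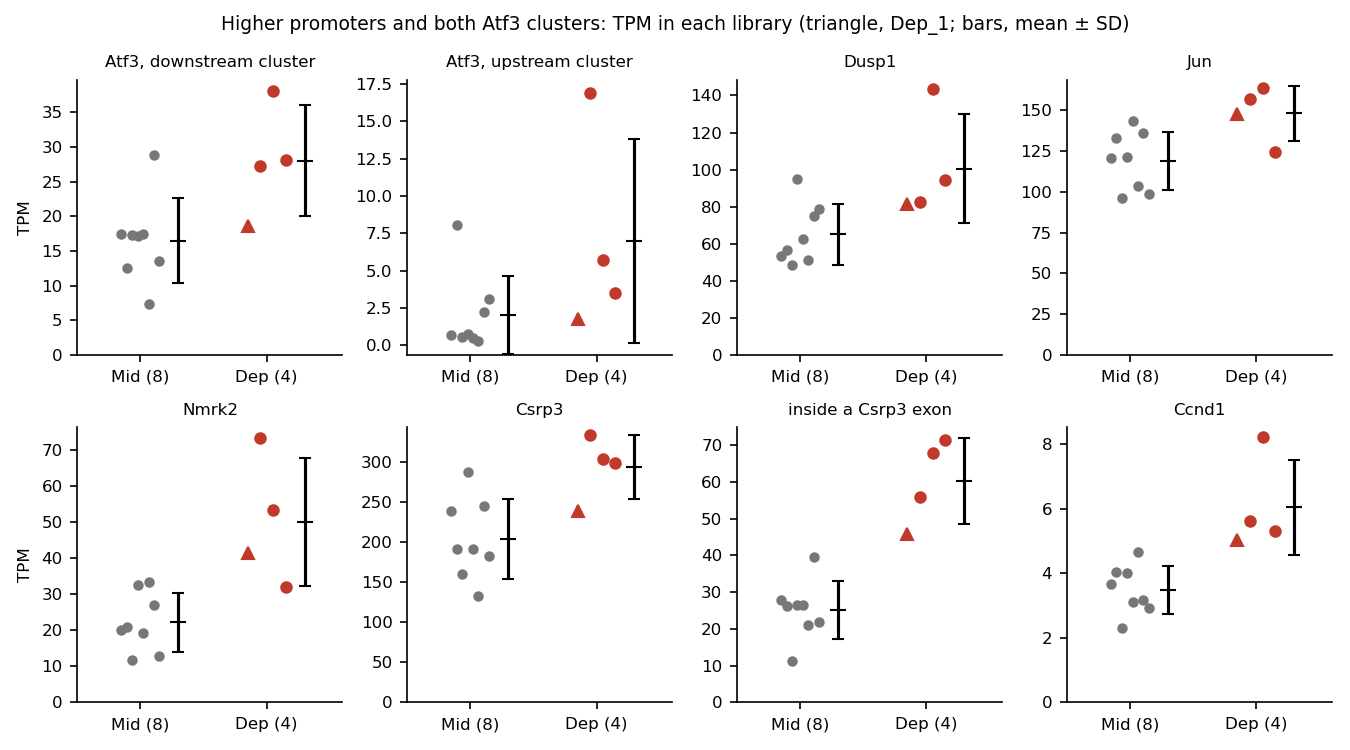
TPM of 8 start site clusters in the 8 Mid (grey) and 4 Dep libraries (red; Dep_1 as a triangle), with the mean ± SD of each group as a bar. All 4 Dep libraries lie above every Mid library for the cluster inside a Csrp3 exon and for Ccnd1, whereas both Atf3 clusters, Dusp1 and Jun overlap with Mid.

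Nmrk2 and Csrp3, genes of working and stressed muscle, were higher in Dep than in Mid in both fits. Nmrk2 encodes nicotinamide riboside kinase 2, which makes a precursor of NAD. It held 41.5, 73.3, 53.5 and 32 TPM in Dep_1 to Dep_4, against a lowest of 11.7, a median of 20.4 and a highest of 33.3 TPM in Mid. All but Dep_4 lay above every Mid library. Its log2 fold change was 1.24 (SE 0.22, FDR 0.00621), and 1.32 without Dep_1 (SE 0.24, FDR 0.0113). It was called in all 12 fits that left out 1 library. Mean Nmrk2 was 36.3 TPM in Pre, 75.7 in Post, 42.3 in HiT and 36.7 in Fed, each above 22.2 in Mid. The Post mean lay above every Dep library, so high Nmrk2 was not confined to Dep. Csrp3 encodes the muscle LIM protein of the Z-disc, which takes part in sensing stretch. Its promoter held 238.2, 333.1, 303.2 and 298.2 TPM in Dep, against 132.4, 191.4 and 287.7 TPM (lowest, median and highest) in Mid. The log2 fold change was 0.65 (SE 0.16, FDR 0.0326), and 0.74 without Dep_1 (FDR 0.0355). Csrp3 had means of 112.8 TPM in Pre, 208.9 in Post, 390.6 in HiT and 104.3 in Fed, against 203.7 in Mid. A second cluster lay inside a coding exon of Csrp3 on the same strand (chr7:48835446-48835650), with no annotated start near it. It held 45.9, 55.8, 67.9 and 71.3 TPM in Dep and did not exceed 39.5 TPM in Mid, so that the groups were fully apart. The log2 fold change reached 1.38 (SE 0.23, FDR 0.00345), and 1.49 without Dep_1, and it was called in all 12 fits that left out 1 library. Csrp3 was the 1 call among 19 promoters of the mechanical load list in each fit. Of all promoters, 1.16% were called higher (0.696% without Dep_1). Xirp1, an actin-binding protein of damaged or strained fibres, had 1675.5 ± 313.0 TPM in Dep and 1202.1 ± 308.9 in Mid (SD, n = 4 and 8, FDR 0.0758), and Ankrd1, a titin-bound stretch sensor, 69.9 and 67.1 TPM (FDR 0.607).

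The windows of these muscle genes are shown because both hold the same TTAGGCAA, given in capitals, a match to TTANGNAA read on both strands. TTANGNAA is a loosened form of the D-box, the site of the clock factors Tef, Dbp and Hlf, and the match holds for the loosened letters only. Both genes lie on the minus strand.
Nmrk2, chr10:81201988-81202287: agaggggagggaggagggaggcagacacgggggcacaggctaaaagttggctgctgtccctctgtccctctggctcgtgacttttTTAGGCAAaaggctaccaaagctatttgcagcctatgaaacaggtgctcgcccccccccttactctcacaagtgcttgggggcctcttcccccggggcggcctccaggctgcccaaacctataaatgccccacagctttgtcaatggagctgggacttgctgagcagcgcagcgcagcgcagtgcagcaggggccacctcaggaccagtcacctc
Csrp3, chr7:48848002-48848301: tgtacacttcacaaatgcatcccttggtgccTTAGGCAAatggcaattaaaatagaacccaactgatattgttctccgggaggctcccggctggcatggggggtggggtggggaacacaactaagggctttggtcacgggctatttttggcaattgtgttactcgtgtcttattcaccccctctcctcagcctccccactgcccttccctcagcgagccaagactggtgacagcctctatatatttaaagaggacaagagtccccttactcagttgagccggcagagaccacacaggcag
Both matches lay before the RefSeq start, that of Csrp3 from 219 bases on. TTANGNAA was in 520 of 6794 windows (7.65%), in 15 of 84 called higher (17.9%) and in 6 of 68 called lower (8.82%). Without Dep_1 it was in 3 of 48 higher (6.25%) and 5 of 36 lower (13.9%).

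A cluster in an intron of Adprhl1 (chr8:13227825-13227998), a heart and muscle gene related to ADP-ribosylhydrolases, had the largest log2 fold change of those named that were called in both fits. It held 12.1, 23.6, 34.1 and 21.8 TPM in Dep_1 to Dep_4, against 3.01, 7.97 and 17.7 TPM (lowest, median and highest) in Mid. The log2 fold change was 1.54 (SE 0.32, FDR 0.0163), and 1.75 without Dep_1 (FDR 0.0158). Its mean was 0.799 TPM in Pre, 0.770 in Post, 1.1 in Fed and 10.9 in HiT mice. The Fed samples carry the condition label starvation, against their title. The authors state that food was left with this group, and the title is followed here. Clusters with no annotated start within 500 bp made up 7 of the 125 higher and 2 of the 94 lower, and 5 of the 75 and 3 of the 50 without Dep_1, beside 1185 (11%) of all tested.

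Other genes called higher in both fits share no list. Ccnd1, the G1 cyclin D1, held 5.02, 5.60, 8.22 and 5.32 TPM in Dep and at most 4.65 TPM in Mid, with no overlap (log2 fold change 0.87, SE 0.18, FDR 0.0163, and 0.94 without Dep_1, FDR 0.0283). Its means were 7.47 TPM in Pre, 7.14 in Post, 8.16 in HiT and 7.40 in Fed, above those of Dep (6.04) and Mid (3.48). Slc20a1, a phosphate transporter, held 9.17 to 12.6 TPM in Dep against 5.40 to 10.4 TPM in Mid (0.80, FDR 0.0163, and 0.88 without Dep_1, FDR 0.0220). Fzd7, a Wnt receptor of muscle stem cells, held 62.2, 71.6, 73.3 and 47.0 TPM in Dep against 29.3, 41.2 and 51.9 TPM (lowest, median and highest) in Mid (0.73, SE 0.12, FDR 0.00345, and 0.73 without Dep_1, FDR 0.0115), and was called in all 12 fits that left out 1 library. Myf6, the myogenic factor MRF4, held 38.1 to 55.7 TPM in Dep against 21.2 to 40.4 TPM in Mid (0.76, FDR 0.0163, and 0.73 without Dep_1, FDR 0.0433). Mean Myf6 was 44.2 TPM in Pre, 48.9 in Post, 53.2 in HiT and 45.3 in Fed, against 45.4 in Dep and 28.8 in Mid. Gngt2, a G protein gamma subunit, held 6.64 to 10.6 TPM against 3.56 to 6.94 TPM (0.78, FDR 0.00750, and 0.85 without Dep_1, FDR 0.0113). Gm15446, a predicted gene, held 8.48 to 16.3 TPM against 2.32 to 10.6 TPM (0.86, FDR 0.0270, and 0.89 without Dep_1, FDR 0.0451). Of the 10 promoters in the table whose 4 Dep libraries all exceeded every Mid library (0.0928%), 5 were called higher. Dep_2 to Dep_4 all exceeded Mid in 34 (0.316%), of which 12 were called higher without Dep_1.

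Rpl5, a protein of the large ribosomal subunit that also binds Mdm2, had the smallest FDR of the comparison and is named here after its values were seen. It held 61.5, 73.4, 67.6 and 58.5 TPM in Dep and 34.8 to 56.5 TPM in Mid, with no overlap. The log2 fold change of Rpl5 was 0.62 (SE 0.08, FDR 0.00013), and 0.64 without Dep_1 (FDR 0.00058). Among the 84 promoters of 82 cytosolic ribosomal protein genes, 2 were called higher in each fit and 0 lower, and the median log2 fold change was 0.07 (0.09 without Dep_1), beside 0.00 over all promoters. With Dep_1 left out, 72 of the 84 lay above 0, where the median over all promoters was -0.01. The share called higher over all promoters was 1.16% (0.696% without Dep_1). This list was added after values were seen, and its counts were not tested.

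Of 34 promoters of heat shock proteins and chaperones, 3 were called higher in each fit and 0 lower, and the list's median was 0.13 (0.16 without Dep_1). The share called higher over all promoters was 1.16% (0.696% without Dep_1). Dnajb5, a co-chaperone of Hsp70, held 81.4, 90.0, 108.2 and 91.5 TPM in Dep_1 to Dep_4, against 52.8, 64.7 and 92.0 TPM (lowest, median and highest) in Mid (0.53, SE 0.11, FDR 0.0196, and 0.58 without Dep_1, FDR 0.0288). Only Dep_3 lay above every Mid library. Dnaja1, another co-chaperone of Hsp70, held 19.9, 24.4, 23.9 and 21.7 TPM against 13 to 21.7 TPM (0.53, FDR 0.0385, and 0.58 without Dep_1, FDR 0.0492). Hspb8, a small heat shock protein that works with Bag3, held 558.0, 675.0, 744.3 and 601.5 TPM against 408.8 to 693.7 TPM (0.33, FDR 0.0438, and 0.39 without Dep_1, FDR 0.0401). Dnaja1 and Hspb8 were each called in 5 of the 12 fits that left out 1 library, and Dnajb5 in 10. Of the stress-inducible Hsp70 genes, Hspa1a had 191.9 TPM in Dep and 193.8 in Mid (FDR 0.753) and Hspa1b 87.5 and 83.0 TPM (FDR 0.573). Hspa5, the chaperone of the endoplasmic reticulum, had 110.9 ± 31.6 and 81.5 ± 30.1 TPM (SD, n = 4 and 8, FDR 0.109).

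A pair of clock genes was lower in Dep. Of 20 promoters of circadian clock genes, 2 were called lower in each fit and 0 higher, and the median of the list was -0.12 (-0.13 without Dep_1). The share called lower over all promoters was 0.872% (0.464% without Dep_1). Tef, a D-box binding factor driven by the clock, held 30.6, 25.3, 47.1 and 18.2 TPM in Dep_1 to Dep_4, against 37.1, 59.2 and 84.8 TPM (lowest, median and highest) in Mid. All but Dep_3 lay below every Mid library. Its log2 fold change was -0.88 (SE 0.18, FDR 0.0163), and -0.90 without Dep_1 (FDR 0.0351). Another Tef cluster had a log2 fold change of -0.23 (FDR 0.295). Nr1d1 encodes the repressor Rev-erb alpha. It held 14.9, 13.2, 11.3 and 9.63 TPM in Dep, against 11.1, 22.5 and 28.4 TPM in Mid, where Mid_6 was the only library below 20.7 TPM. Nr1d1 had a log2 fold change of -0.75 (SE 0.18, FDR 0.0287), and -0.86 without Dep_1 (FDR 0.0351). Dbp, driven through E-boxes like Tef, had 7.33 TPM in Dep and 9.38 in Mid (FDR 0.271), and the core gene Arntl 50.9 and 49.1 TPM (FDR 0.296). The Tef window (plus strand) is shown for its E-box CACGTG, the site of Clock and Arntl, given in capitals.
Tef, chr15:81811164-81811463: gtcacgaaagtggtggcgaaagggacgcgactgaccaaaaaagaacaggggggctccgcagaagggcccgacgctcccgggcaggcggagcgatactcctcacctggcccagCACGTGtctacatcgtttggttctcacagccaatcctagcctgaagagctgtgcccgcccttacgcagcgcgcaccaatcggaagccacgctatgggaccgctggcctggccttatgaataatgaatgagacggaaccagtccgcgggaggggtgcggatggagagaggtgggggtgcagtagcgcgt
It began 138 bases before the RefSeq start. CACGTG was in 725 of 6794 windows (10.7%), in 11 of 84 called higher (13.1%) and 7 of 68 called lower (10.3%), and without Dep_1 in 10 of 48 higher (20.8%) and 5 of 36 lower (13.9%).

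**Figure D4:**
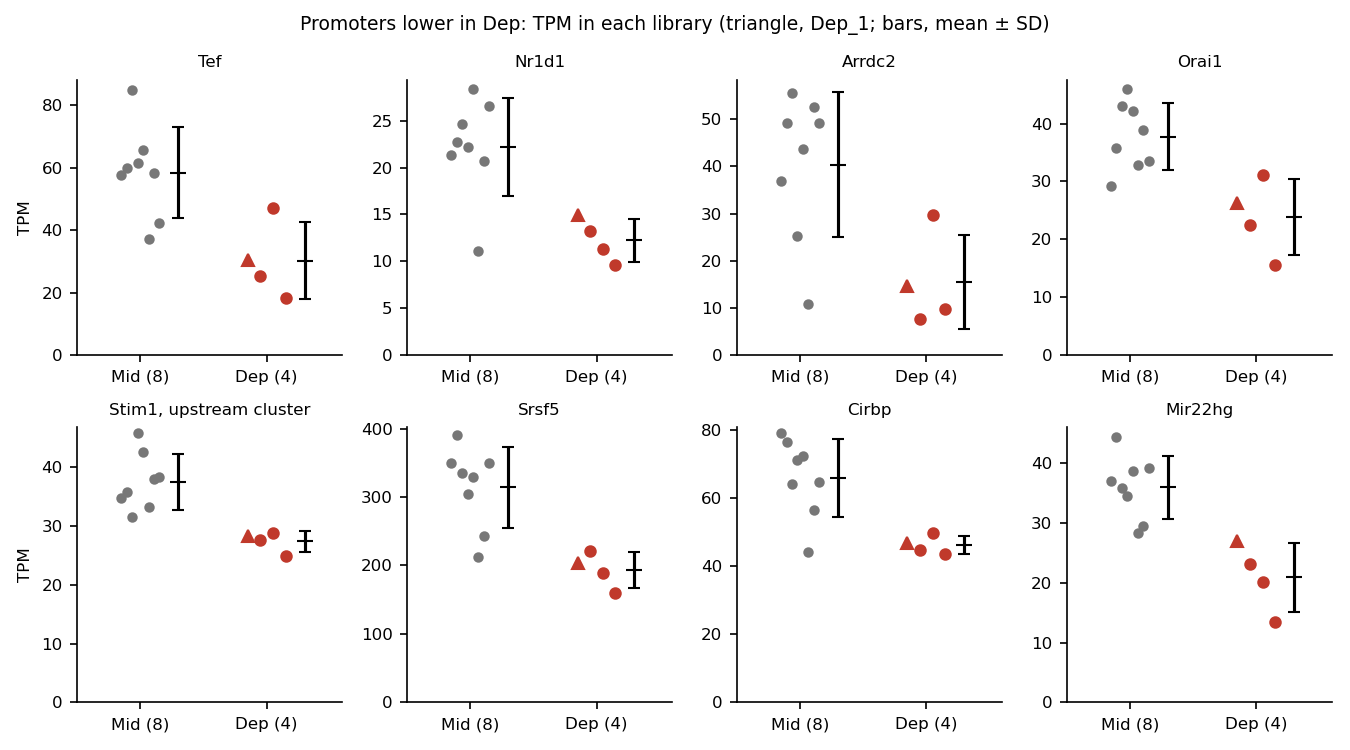
TPM of 8 start site clusters called lower in Dep, in the 8 Mid (grey) and 4 Dep libraries (red; Dep_1 as a triangle), with the mean ± SD of each group as a bar. All 4 Dep libraries lie below every Mid library for Mir22hg and the upstream cluster of Stim1.

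Targets of the glucocorticoid receptor had 1 promoter called lower among 22, beside 0.872% of all promoters, and 0 called higher. Klf9, a hormone-induced zinc finger factor, held 111.9, 91.1, 155.3 and 87.0 TPM in Dep_1 to Dep_4, against 88.2, 173.3 and 213.6 TPM (lowest, median and highest) in Mid, where Mid_6 was the only library below 157.5 TPM. It fell by 0.51 on the log2 scale (SE 0.13, FDR 0.0378), and without Dep_1 the change of -0.52 missed the threshold (FDR 0.0658). Klf9 kept its call in 4 of the 12 fits that left out 1 library. Its means were 93.9 TPM in Pre, 70.4 in Post, 76.8 in HiT and 108.1 in Fed, against 111.3 in Dep and 168.3 in Mid. Fkbp5, a co-chaperone of that receptor, had 37.8 ± 17.9 TPM in Dep and 65.6 ± 21.4 in Mid (SD, n = 4 and 8, FDR 0.0658), and Cebpd, a bZIP factor, 87.3 ± 40.6 and 141.6 ± 53.5 TPM (FDR 0.207). The median log2 fold change of the list was -0.26, and -0.28 without Dep_1, where 18 of the 22 lay below 0. Over all promoters the median was 0.00, and -0.01 without Dep_1, and the difference was not tested. The muscle atrophy ligases Trim63 (622.7 and 787.8 TPM, FDR 0.565) and Fbxo32 (226.2 and 287.3 TPM, FDR 0.427) did not pass, and the atrophy and growth list had 0 calls among 23 promoters.

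Start sites of both parts of the store-operated calcium channel were lower. Orai1, its pore, held 26.2, 22.5, 31.2 and 15.6 TPM in Dep_1 to Dep_4, against 29.2, 37.3 and 46.0 TPM (lowest, median and highest) in Mid, so that only Dep_3 overlapped. It fell by 0.58 on the log2 scale (SE 0.12, FDR 0.0147), and by 0.64 without Dep_1 (FDR 0.0220). Stim1, the sensor of stored calcium that opens Orai1, has 2 clusters. The upstream one held 28.3, 27.6, 28.9 and 24.9 TPM in Dep and at least 31.6 TPM in Mid, with no overlap, and fell by 0.35 on the log2 scale (SE 0.08, FDR 0.0212), and by 0.37 without Dep_1 (FDR 0.0398). The stronger one, at the annotated start, held 72.1 to 99.1 TPM against 89.0 to 114.8 TPM and was not called (-0.23, FDR 0.120). These were the 2 calls among 24 promoters of calcium handling and muscle heat production in each fit, whose median was -0.16 in both. Over all promoters, 0.872% were called lower (0.464% without Dep_1). Sln, the regulator of the calcium pump in muscle heat production, had 100.2 and 145.3 TPM (FDR 0.319), and Ryr1, the calcium release channel, 518.2 and 633.0 TPM (FDR 0.171).

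Prkar2a, a regulatory subunit of protein kinase A, held 19.6, 20.3, 33.0 and 17.1 TPM in Dep against 24.6, 36.3 and 54.2 TPM (lowest, median and highest) in Mid and fell by 0.64 on the log2 scale (FDR 0.0364), with an FDR of 0.0895 without Dep_1. Prkacb, a catalytic subunit of that kinase named here after its values were seen, held 17.8 to 27 TPM against 24.3 to 37.5 TPM (-0.36, FDR 0.0163, and 0.0355 without Dep_1). The 2 clusters of Prkar1a, another regulatory subunit, had log2 fold changes of 0.26 (FDR 0.322) and 0.10 (FDR 0.315). Prkar2a was the only call among 22 promoters of cyclic AMP response genes, beside 0.872% of all promoters called lower. Nr4a1, an orphan nuclear receptor induced by cyclic AMP, had 8.03 ± 3.52 TPM in Dep and 4.93 ± 0.957 in Mid (SD, n = 4 and 8, FDR 0.176). Ppargc1a, the coactivator of oxidative metabolism and a gene of this list, was not called at its stronger cluster (156.1, 156.1, 246.2 and 196.4 TPM in Dep, 25.9 to 351.1 TPM in Mid, log2 fold change 0.16, SE 0.50, FDR 0.893).

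Srsf5 and Cirbp, RNA-binding proteins, were lower as well. Srsf5, a splicing factor, held 202.9, 221.0, 189.7 and 159.4 TPM in Dep against 211.8, 332.0 and 390.3 TPM (lowest, median and highest) in Mid, with only Dep_2 inside the Mid range. It fell by 0.60 on the log2 scale (SE 0.12, FDR 0.0163), by 0.63 without Dep_1 (FDR 0.0335), and was called in all 12 fits that left out 1 library. Mean Srsf5 was 181.5 TPM in Pre, 194.3 in Post, 189.5 in HiT and 238.0 in Fed, against 193.2 in Dep and 314.1 in Mid. Cirbp, the cold-inducible RNA-binding protein, held 46.8, 44.7, 49.6 and 43.7 TPM in Dep and, apart from 1 library at 44.1 TPM, at least 56.5 TPM in Mid. It fell by 0.41 on the log2 scale (SE 0.09, FDR 0.0271), and without Dep_1 the FDR was 0.0544. Rbm3, the other well-known cold-inducible protein of this family, held 28.5 to 34.9 TPM against 32.2 to 48.7 TPM and was not called (-0.19, FDR 0.269). Cirbp had means of 59.4 TPM in Pre, 69.7 in Post, 44.4 in HiT and 58.9 in Fed, against 66.0 in Mid. Those of Rbm3 were 43.0, 40.7, 27.7 and 34.1 TPM in the same groups, beside a Mid median of 38.3 TPM. Of 13 promoters of this list, 2 were called lower and 0 higher with Dep_1, beside 0.872% and 1.16% of all promoters. Without it 1 was called lower and 1 higher, the splicing factor Srsf1 (29, 31.4, 48.1 and 33.4 TPM in Dep, 24.4 to 36.7 TPM in Mid, log2 fold change 0.39, FDR 0.0425).

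The largest decreases were in genes with no list in common. Arrdc2, an arrestin domain protein, held 14.7, 7.66, 29.7 and 9.86 TPM in Dep against 10.8, 46.5 and 55.5 TPM (lowest, median and highest) in Mid. Its log2 fold change of -1.33 (SE 0.32, FDR 0.0322) kept its size without Dep_1 but not its call (FDR 0.0668), and its means in Pre, Post, HiT and Fed were 6.84, 4.82, 8.55 and 7.90 TPM. Mafa, a bZIP factor best known from pancreatic beta cells, was weak in every library, at 0.412 to 1.1 TPM in Dep and 1.07 to 3.02 TPM in Mid (-1.31, FDR 0.0476, and -1.59 without Dep_1, FDR 0.0470). Mafa was called in 4 of the 12 fits that left out 1 library. Fam214a held 5.70 to 15.2 TPM against 7.16 to 33.8 TPM (-1.13, FDR 0.0287, and -1.25 without Dep_1, FDR 0.0433), and Gata2, a zinc finger factor of blood and vessels, 4.01 to 8.77 TPM against 7.54 to 21.1 TPM (-0.88, FDR 0.0353, and 0.0560 without Dep_1).

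Ankrd9, the predicted gene Gm10762, Eepd1, and Mir22hg, the host transcript of miR-22, were apart from Mid in all 4 Dep libraries. Ankrd9 held 14.3 to 20.1 TPM against 20.6 to 43.6 TPM (-0.81, SE 0.15, FDR 0.00750, and -0.88 without Dep_1, FDR 0.0144) and Gm10762 2.62 to 4.31 TPM against 4.98 to 9.69 TPM (-0.90, FDR 0.00750, and -0.93 without Dep_1, FDR 0.0220), both called in all 12 fits that left out 1 library. Mir22hg held 27, 23.1, 20.2 and 13.4 TPM against 28.3 to 44.5 TPM (-0.69, SE 0.14, FDR 0.0156, and -0.85 without Dep_1, FDR 0.00960). Eepd1 held 8.63 to 16.9 TPM against 17.2 to 32.6 TPM (-0.69, FDR 0.0427, and -0.85 without Dep_1, FDR 0.0351), and was called in 6 of the 12 fits that left out 1 library. Of the 55 promoters in the table whose 4 Dep libraries were all below Mid in TPM (0.510%), 19 were called lower. Dep_2 to Dep_4 were all below Mid in 116 (1.08%), of which 21 were called lower without Dep_1. TPM is not TMM-scaled, and with unscaled library sizes the log2 fold changes of all promoters had a median of -0.10, so that separations in TPM favour the lower side.

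Other decreases named by the same rule overlapped with Mid. Fkbp8, a mitochondrial inhibitor of apoptosis, held 24.0 to 50.6 TPM against 40.8 to 81.4 TPM (-0.81, FDR 0.0147, and -0.78 without Dep_1, FDR 0.0355) and was called in all 12 fits that left out 1 library. Acvr1b, a receptor that carries activin and myostatin signals, held 10.2 to 17.1 TPM against 10.1 to 31.4 TPM (-0.75, FDR 0.0271, and -0.85 without Dep_1, FDR 0.0355). Cep85l, a centrosome protein, held 45.7 to 73.4 TPM against 55.0 to 170.1 TPM (-0.78, FDR 0.0270, and -0.84 without Dep_1, FDR 0.0425). The chromatin protein Cecr2 (3.31 to 5.15 TPM against 4.33 to 13.7 TPM, -0.81, FDR 0.0420) was called with Dep_1 but not without it (FDR 0.0817). Lower clusters with no annotated start were 1 in a coding exon of Kcna7 (chr7:45406346-45407029), a potassium channel, at 95.0 to 114.6 TPM against 108.4 to 167.3 TPM (-0.32, FDR 0.0270, and -0.35 without Dep_1, FDR 0.0425), and 1 between genes (chr4:33247854-33248320) at 6.34 to 9.94 TPM against 7.66 to 14.8 TPM (-0.43, FDR 0.0498, and 0.152 without Dep_1).

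The lists of fasting metabolism had no call in either fit. Over all promoters, 1.16% were called higher and 0.872% lower with Dep_1. At those shares, lists this short would hold few calls or none, so an empty list does not show an unchanged programme. Among 32 promoters of fat oxidation and PPAR targets the median was 0.06 (0.07 without Dep_1). Pdk4, a kinase that inhibits pyruvate dehydrogenase in fasting, held 3875.7, 4659.0, 5687.0 and 4047.2 TPM in Dep (FDR 0.825). In Mid it held between 4534.4 and 5884.6 TPM, apart from Mid_6 at 1361.3 TPM. Fabp3, the fatty acid carrier of muscle, held 3852.7 to 5661.8 TPM against 2556.6 to 4718.1 TPM (0.53, SE 0.15, FDR 0.0717). Glucose uptake and glycolysis (27 promoters, median -0.05, and -0.09 without Dep_1) had Aldoa at 879.2 and 1024.7 TPM (FDR 0.684) and Pygm, glycogen phosphorylase, at 950.0 and 1182.9 TPM (FDR 0.350), and with Dep_1 left out 21 of the 27 lay below 0. In that fit the median over all promoters was -0.01, and the difference was not tested. Fatty acid and cholesterol synthesis (20 promoters, median 0.01, and 0.00 without Dep_1) had Acacb at 126.1 and 120.7 TPM (FDR 0.369) and Scd1, a desaturase, between 36.4 and 929.9 TPM over the 12 libraries (FDR 0.758).

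Stress lists other than those above had no call either. They too are short, and few calls or none would fall in them at the shares over all promoters (1.16% higher, 0.872% lower). The integrated stress response (17 promoters, median 0.10, and 0.12 without Dep_1) had Eif4ebp1, a brake on translation, at 268.5 and 262.5 TPM (FDR 0.588) and Cebpb, a bZIP factor, at 112.9 and 146.6 TPM (FDR 0.159). Cytokine and injury signalling (14 promoters, median 0.10, and 0.08 without Dep_1) had Tnfrsf12a, the receptor of TWEAK, at 348.4, 533.9, 521.4 and 403.1 TPM in Dep against 190.3 to 426.5 TPM in Mid (0.77, SE 0.22, FDR 0.0621), and Vegfa, the vessel growth factor, at 258.3 and 216.1 TPM (FDR 0.0650). Metallothioneins and antioxidant genes (21 promoters, median 0.12, and 0.05 without Dep_1) had Mt1 at 316.0 to 758.8 TPM against 119.9 to 1291.3 TPM (FDR 0.815) and Sod2, the mitochondrial superoxide dismutase, at 570.5 and 606.7 TPM (FDR 0.922).

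**Figure D5:**
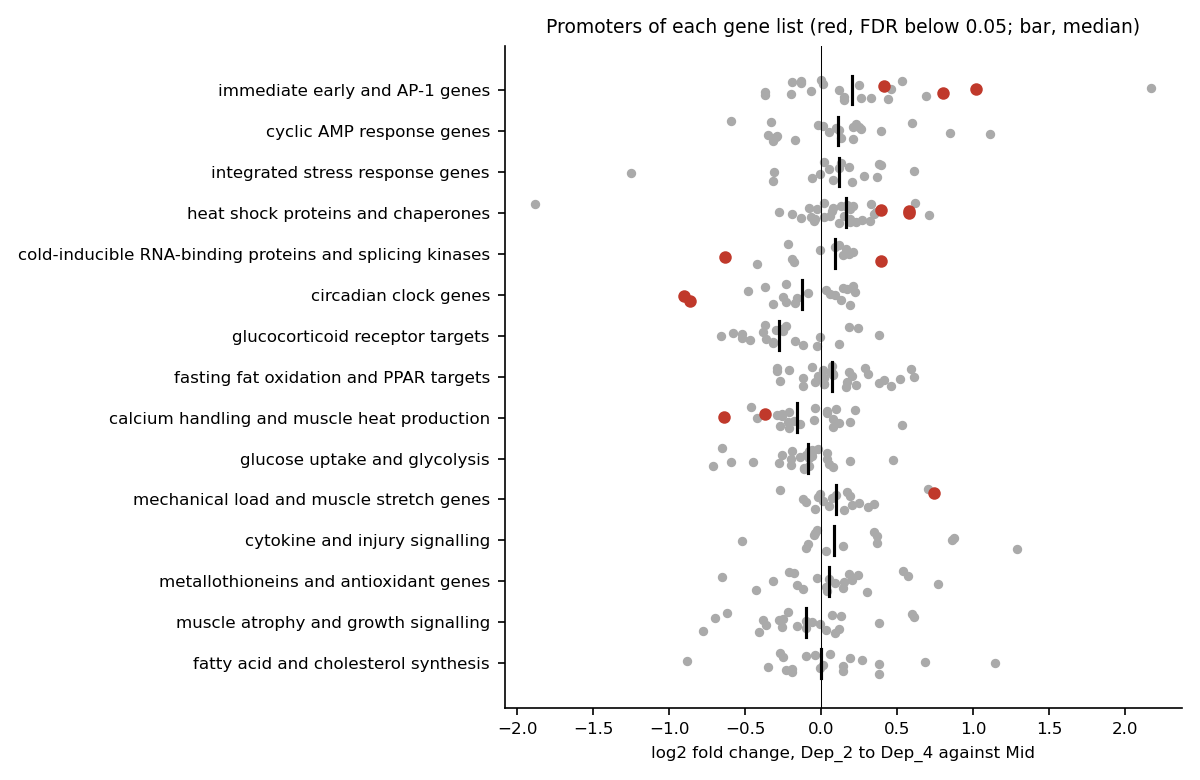
Log2 fold change of Dep_2 to Dep_4 against Mid for each promoter of 15 gene lists (points, red at an FDR below 0.05), with the list's median as a bar. Calls are in 6 lists, namely immediate early, chaperone and mechanical load genes above 0, clock and calcium handling genes below 0, and the RNA-binding list on both sides.

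Markers of cell types were read beside these results, since in a bulk sample fewer cells of a type and less RNA per cell cannot be told apart. Slow fibre markers (25 promoters) summed to between 17365.0 and 18819.2 TPM in Dep and between 16721.3 and 25945.1 TPM in Mid. The Mid median of 19307.5 TPM lay above every Dep library. Fast glycolytic markers (24 promoters) summed to between 21089.7 and 27029.1 TPM in Dep and between 20145.7 and 31347.0 TPM in Mid. Both fibre types were thus strongly present in each group, with 0 calls. The Schwann cell and nerve markers of Dep_2 (471.5 TPM) and Dep_3 (263.6 TPM) exceeded every Mid library (81.0 to 233.9 TPM), with no promoter called among 7 and a median log2 fold change of 0.54 (0.68 without Dep_1). Adipocyte markers (2068.8 to 4464.9 TPM in Dep, 2192.2 to 4784.8 TPM in Mid) had 0 calls and a median log2 fold change of 0.45 (0.66 without Dep_1). Endothelial markers (306.2 to 466.5 and 341.7 to 492.2 TPM) and markers of tendon and fibroblasts (2023.5 to 3125.4 and 2195.7 to 3164.3 TPM) had 0 calls as well. Macrophage markers were highest in Dep_1 (119.4 TPM, against 46.5 to 96.2 TPM in the other 11 libraries), again with 0 calls. Of the markers, 4 neutrophil promoters and 1 red cell promoter were called higher with Dep_1 and 0 of any list without it. Among all promoters, 1.16% were called higher with Dep_1 and 0.696% without it. Without Dep_1, all 8 red cell promoters lay below 0 (median log2 fold change -0.32), and 8 of 10 macrophage promoters did (median -0.14). The median over all promoters was then -0.01. The part of these cells in the other results was not tested.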

How the data were processed

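RNA of mouse soleus was profiled by nAnT-iCAGE. The authors trimmed the reads, aligned them with BWA and HISAT2 (versions not given in the sources used here) to mm10 (GRCm38), and gathered capped 5′ ends into clusters. The deposited table holds raw tag counts per cluster, as the authors counted them, and TPM, which the authors scaled to the tags of each library. Samples were grouped by title. Clusters were annotated here with GENCODE M21 transcript starts within 500 bp. Depth was 23175690 to 31834199 tags per library, and precision at low TPM is limited by counting error. Dep and Mid were compared with edgeR 4.0.16 in R 4.3.3 over the 28 libraries of the first set, and again without Dep_1. The test was the quasi-likelihood F test with TMM and group as the only term (two-sided, Benjamini-Hochberg FDR below 0.05). Each SE was taken as the log2 fold change divided by the square root of F. Libraries of the second set were not used.

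The members and the gene lists were chosen with earlier results of these data known. In each direction, the text names the 10 genes with the largest change at 1 TPM or more, up to 10 called in both fits, all promoters of Atf3, up to 4 called members of each of 15 pathway lists (2 of highest TPM where none was called) and 2 clusters without a gene. A gene that this rule names is not reported here. Histone and ribosomal protein lists were added after values were seen, as were list members named beside the calls, Rpl5, Prkacb, Rbm3, Ppargc1a, the second Stim1 cluster and the motif TNACGTCA. DESeq2 1.42.0 and other scalings, filters and sample sets were tried. The scripts were tested on simulated data. Promoter windows are from RefSeq (GRCm38.p6). Marker sums cover 10 lists.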

Additional observations from a re-analysis of the deposited data

Results flagged for a closer look

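Dixon's criterion marked a library standing far from the rest in 22 of 164 groups of 4 or 8 values. Chance marks about 1 in 20 groups, but many of these promoters were named for their large changes, 10 of them through high values in Dep_1 itself, so the number of marks is a description and not a test. Dep_1 accounted for 12, all with high values. In Dep_1, Camp was at 53.2 TPM and Ngp at 22.5 TPM, both with no tag in the other Dep libraries, S100a8 at 23.4 TPM (others at most 0.577), S100a9 at 17.6 TPM (at most 0.247) and Slc4a1 at 14.8 TPM (at most 0.475). The histone promoters were Hist1h2ah at 19.7 TPM, Hist1h3b at 27.3, Hist1h3c at 26.6, Hist2h3c1 at 37.5 and Hist2h3c2 at 37.9 TPM, none above 2.34 TPM in the other Dep libraries. The summed neutrophil markers were 135.1 TPM and the summed cell division markers 3.42 TPM.

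Mid_6 stood lowest in Mid for 4 promoters, with Pdk4 at 1361.3 TPM (others from 4534.4), Klf9 at 88.2 TPM (from 157.5), Nr1d1 at 11.1 TPM (from 20.7) and Acvr1b at 10.1 TPM (from 21.6). Mid_7 stood highest for the downstream Atf3 cluster at 28.8 TPM (others at most 17.5) and for Slc20a1 at 10.4 TPM (at most 7.66). Mid_2 stood highest for the upstream Atf3 cluster at 8.08 TPM (at most 3.12) and for S100a8 at 0.6 TPM (at most 0.268). Gata2 in Mid_3 was at 21.1 TPM (at most 13.1), and Scd1 in Mid_1 at 914.6 TPM (at most 408.0).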

How the results depend on the processing

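The counts of called promoters depended on the fit. With all Dep libraries, the numbers higher and lower were 189 and 154 with edgeR's likelihood ratio test, 245 and 234 with DESeq2, 7 and 2 with library sizes without TMM, 2 and 0 with the Dep and Mid libraries alone, and 80 and 59 with the suffix ab of the library names as a term. Without Dep_1 they were 140 and 101, 193 and 165, 2 and 0, 0 and 0, and 62 and 47. DESeq2 size factors in edgeR, upper-quartile scaling and a filter on low counts gave 112 to 122 higher and 82 to 94 lower, and 70 to 83 and 46 to 52 without Dep_1. DESeq2 called 118 of the 125 higher and all 94 lower promoters too. Beside these counts, the causes were not tested.

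Leaving out 1 library gave 35 to 191 higher and 11 to 166 lower, and with Dep_1 also left out 9 to 147 and 2 to 84. The counts were 75 and 50 without Dep_1, 35 and 11 without Dep_2, 147 and 163 without Dep_3, 43 and 20 without Dep_4, 65 and 46 without Mid_2, 71 and 54 without Mid_3, 82 and 64 without Mid_4, 74 and 55 without Mid_5, and 191 and 166 without Mid_6. The distance difference ranged from -0.0125 to 0.0647. Over these fits the log2 fold changes ran from -3.04 to 9.54 for Camp, -2.35 to 8.74 for Ngp, -0.60 to 2.95 for Slc4a1, -0.00 to 2.69 for Hist1h3b, -0.31 to 2.77 for Hist1h3c, -0.24 to 2.67 for Hist2h3c1 and -0.36 to 2.62 for Hist2h3c2, and each sign turned only without Dep_1. Camp and Ngp then rest on at most 4 tags in a library, so no fold is read from them.

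A fit with the replicate number as a replicate block gave 218 higher and 189 lower promoters (84 and 63 of them called without the block), and 110 and 59 without Dep_1. Same-numbered Dep and Mid libraries correlated at -0.0278, 0.236, 0.43 and -0.128 in their deviations from the group means, and 1 of the 4 numbers correlated best with itself, so the numbers were not taken to pair the mice. With 4 and 3 Dep libraries, the smallest exact two-sided p for a single promoter is 0.00202 and 0.00606.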

Other observations

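Some promoters not described above kept their call in the fit of 28 libraries and in all 12 fits that left out 1 library, and are named here after their values were seen. Kcnj12, an inward rectifier potassium channel of muscle membranes, was lower in Dep with a log2 fold change of -0.74 (edgeR FDR 0.00323), and of -0.81 without Dep_1 (FDR 0.00398). Efnb2, the membrane-bound ligand ephrin-B2, was lower by -0.46 (FDR 0.0163), and Mtmr9, a myotubularin-related protein, by -0.60 (FDR 0.0145). Pdxk, the kinase that activates vitamin B6, was higher by 0.59 (FDR 0.00345), and Prelp, a leucine-rich proteoglycan of connective tissue, by 0.55 (FDR 0.00750). Ino80e, a subunit of the INO80 chromatin remodeller, was higher by 0.54 (FDR 0.00621) and Srek1ip1, a splicing-associated protein, by 0.38 (FDR 0.00621). In all, 13 higher and 7 lower promoters kept their call in this way.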
